A study of Homo sapiens with 12 samples.

Results

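The comparison described here set DROSHA without its belt against wild-type DROSHA, both supplied to cells that lack the enzyme, and covers 6 of the 12 small RNA libraries of the series. The cells were HCT116, a human colorectal carcinoma line, with the genotype DROSHA-KO. Every library, controls included, came from cells that received 4.5 µg of the plasmid pXC-NLS-DG4 together with a pCK plasmid. The pCK plasmid coded for wild-type DROSHA in 3 libraries and for DROSHA with the belt deleted in 3 libraries, at 4.5 µg. The other 6 libraries, 3 with the empty pCK plasmid and 3 with the DROSHA mutant m4, entered the estimate of the spread between replicates and are given only beside results they bear on. The libraries were chosen by their labels, not by any measured value. The labels do not state which residues the belt deletion removes, what pXC-NLS-DG4 codes for, whether DROSHA-KO is 1 clone, or whether the repeats are separate cultures, so p-values measure the spread between these samples, which may be technical.

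DROSHA is the nuclear RNase III enzyme that, with its partner DGCR8 in the Microprocessor complex, cuts the stem of a primary miRNA transcript and releases a hairpin. DICER then cuts near the loop and leaves a duplex of a 5p and a 3p strand, of which an Argonaute protein keeps mainly one as the mature miRNA. The belt is a segment of DROSHA that lies around the base of the bound hairpin, where the stem passes into single-stranded flanks. A few hairpins mature without DROSHA, such as the miR-320 hairpin, which is made directly as a capped short transcript, and mirtrons, which the spliceosome excises. Their reads served as the scale. A scaled read below is a read count divided by a library factor computed from 5 such features (miR-1224, miR-1226, miR-320, miR-484 and miR-877), and a call is an adjusted p under 0.05.

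The results turn on a small number of miRNAs whose hairpins gave a changed output. Their mature sequences, from RefSeq (GRCh38.p14), are shown 5′ to 3′ so that pairs with a shared seed can be seen, with the seed (bases 2 to 8, which pair with target mRNAs) in capitals.
miR-30a-5p: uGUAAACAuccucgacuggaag
miR-30e-5p: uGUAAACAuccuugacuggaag
miR-30a-3p: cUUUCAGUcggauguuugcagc
miR-30e-3p: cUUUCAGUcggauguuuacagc
miR-181b-5p: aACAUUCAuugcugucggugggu
miR-181a-5p: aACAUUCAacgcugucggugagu
miR-26b-5p: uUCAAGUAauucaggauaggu
miR-26a-5p: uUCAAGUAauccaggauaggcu
let-7g-5p: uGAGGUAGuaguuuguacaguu
let-7i-5p: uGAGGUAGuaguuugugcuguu
miR-221-3p: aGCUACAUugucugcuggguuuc
miR-222-3p: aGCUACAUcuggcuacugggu
miR-148b-3p: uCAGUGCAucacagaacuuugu
miR-148a-3p: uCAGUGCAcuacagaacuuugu
miR-27a-5p: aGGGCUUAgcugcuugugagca
miR-27a-3p: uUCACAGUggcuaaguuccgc
miR-27b-3p: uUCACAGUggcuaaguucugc
miR-216a-3p: uCACAGUGgucucugggauuau
miR-30a-5p and miR-30e-5p have the same seed and differ at 1 of 22 positions, and so do their 3p strands. miR-181b-5p and miR-181a-5p differ at 3 of 23 positions, all outside the seed. The seed is also shared by miR-26b-5p and miR-26a-5p, by let-7g-5p and let-7i-5p, and by miR-148b-3p and miR-148a-3p, with 2 differing positions in each pair. miR-27a-3p and miR-27b-3p share the seed and differ at 1 of 21 positions. miR-221-3p and miR-222-3p share the seed and differ at 10 of 21 positions. Because the use of reads that fit several hairpins is not given in the sources used here, values of the pairs that differ at 1 to 3 positions carry the uncertainty that the counting may have divided or shared their reads.

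The hairpins below are those whose arm balance is described later, each at its hg38 position, with the mature strands that RefSeq lists for it in capitals.
mir-30a: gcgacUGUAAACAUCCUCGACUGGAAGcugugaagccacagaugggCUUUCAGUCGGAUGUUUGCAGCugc
mir-30e: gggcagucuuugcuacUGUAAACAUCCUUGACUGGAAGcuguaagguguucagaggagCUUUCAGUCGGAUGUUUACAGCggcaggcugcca
mir-10a: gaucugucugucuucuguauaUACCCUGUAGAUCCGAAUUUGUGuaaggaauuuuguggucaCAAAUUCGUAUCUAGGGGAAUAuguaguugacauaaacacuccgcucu
mir-27a: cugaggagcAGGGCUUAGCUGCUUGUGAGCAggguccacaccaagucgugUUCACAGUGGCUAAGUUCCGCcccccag
mir-221: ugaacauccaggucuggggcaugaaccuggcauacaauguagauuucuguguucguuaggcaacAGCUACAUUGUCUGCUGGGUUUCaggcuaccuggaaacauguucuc
The mir-30a hairpin lies in an intron of the long non-coding RNA gene LINC00472 (chr6:71403551-71403621, minus strand). The mir-30e hairpin lies in an intron of NFYC, the gene of a CCAAT-binding transcription factor subunit (chr1:40754355-40754446, plus strand). The mir-10a hairpin lies in the HOXB cluster, in an annotated exon of HOXB4 (GENCODE v29, as for the other hosts) (chr17:48579838-48579947, minus strand). The mir-27a hairpin (chr19:13836440-13836517, minus strand) is part of the mir-23a cluster and lies in an annotated exon of the non-coding gene AC020916.1. The mir-221 hairpin (chrX:45746157-45746266, minus strand) lies in an intron of MIR222HG, the host of both mir-221 and mir-222.

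The deposited table held 217141 to 359390 reads in the wild-type libraries and 286810 to 407461 in the belt deletion libraries. After each mature name was kept once, 174323 to 332081 reads remained, and 700 to 800 mature miRNAs were detected per library. Replicates differed beyond counting noise (chi-square per degree of freedom 17.6 to 64.2 between pairs of the same group). Reads of all other miRNAs relative to the summed reads of the 5 DROSHA-independent features gave log2 ratios of 0.99, 1.32 and 0.12 in wild type replicates 1, 2 and 3, and of 0.59, 0.79 and 0.22 with the belt deletion. That sum, unlike the library factor, was mostly miR-320, at a mean of 104288 scaled reads with wild type. The next highest feature, miR-877, had 711. The groups overlapped, and wild type replicate 3 was the lowest of the 6. The means were 0.81 ± 0.62 and 0.53 ± 0.29 (SD, n = 3), a difference of -0.27 with an exact two-sided permutation p of 0.5, where 0.1 is the smallest that 3 against 3 allows. That difference was -0.62 without wild type replicate 3, -0.02 without wild type replicate 2 and -0.31 without miR-320 in the reference. The reference features themselves changed by 0.78 (miR-1224), 0.15 (miR-320), 0.03 (miR-877), -0.14 (miR-1226) and -0.37 (miR-484) on the log2 scale. The table counts small RNAs, so neither the knockout nor the supplied DROSHA could be checked in it. In such bulk libraries, fewer cells that took up a plasmid and less miRNA per cell cannot be told apart. Of 15 miRNAs that mark liver, endothelium, neurons, muscle, fibroblasts or blood, 9 were in the table and 8 were detected in the 6 libraries. Of these 4 could be tested, with 0 called by edgeR or DESeq2 and 1 at an unadjusted p under 0.05. Over all 318 miRNAs tested, 12.6% were called by edgeR and 75 had an unadjusted p under 0.05, so 4 markers are too few to differ visibly. The summed level of the 9 was 479 to 700.4 scaled reads with wild type and 569 to 786 with the belt deletion, most of it miR-126-3p. The blood marker miR-142-5p was the only 1 of the 9 at 0 in the 6 libraries. Markers of colon epithelium were all detected (8 of 8), at a summed 151 to 249 and 137 to 381 scaled reads.

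With the belt deleted a subset of miRNAs was lower than with wild type and a smaller subset was higher. Of 318 miRNAs tested, 30 fell (9.43%) and 10 rose (3.14%), 12.6% in either direction, by edgeR's quasi-likelihood test. The median log2 change over all 318 was 0.02. The fallen miRNAs were 3.61-fold lower by their median, with log2 changes from -4.38 to -1.12, and the risen ones were 3.31-fold higher by their median, from 1.08 to 3.41. At an unadjusted p under 0.05 there were 75. Among all tested miRNAs 32.4% had groups that did not overlap, 17.3% with the belt deletion lower and 15.1% with it higher, and 29 of the 30 falls and 10 of the 10 rises were among these. The exception was miR-99b-5p. The number of rises depended on the scaling, with 26 rises and 29 falls under TMM, 16 and 27 without miR-1224 in the reference, 18 and 34 under DESeq2 size factors, and 5 and 25 when the reference was summed in place of the median. Without wild type replicate 3 there were 6 rises and 39 falls. The median of all miRNAs moved by 0.11 under TMM, by 0.11 without miR-1224, by -0.15 without miR-484 and by -0.15 with the reference summed.

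**Figure D1:**
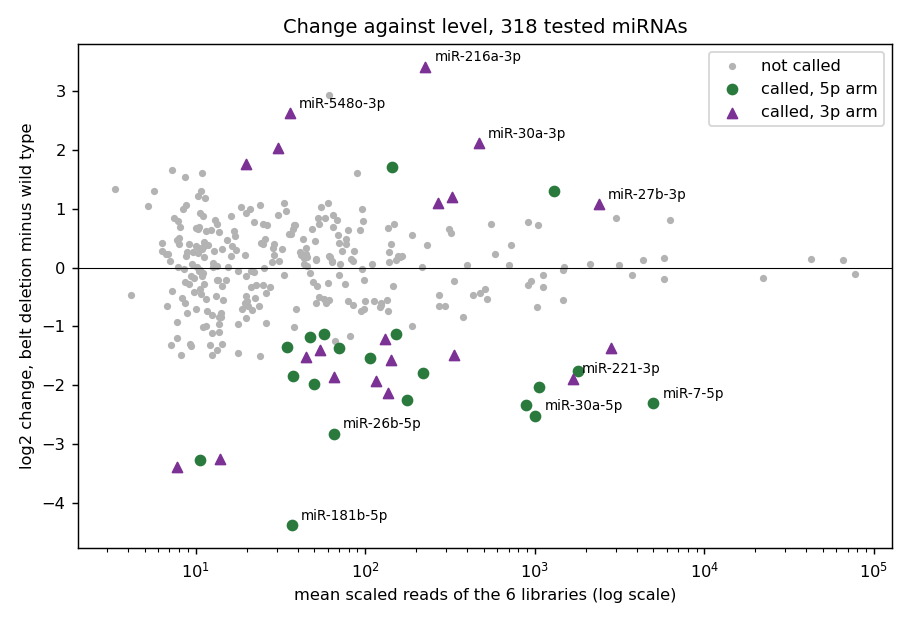
Log2 change with the belt deletion (vertical axis, belt deletion minus wild type) against the mean scaled reads of the 6 libraries (horizontal log axis), 1 point for each of 318 miRNAs, with called 5p strands as circles, called 3p strands as triangles and the rest in grey. Falls reach -4.38 and rises reach 3.41, and 2 of the risen triangles, miR-3158-3p and miR-625-3p, carry reads listed for both arms.

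The miR-30 family, which restrains epithelial-mesenchymal transition and autophagy genes, held the most called members of any list. In wild type replicates 1, 2 and 3 miR-30a-5p stood at 1359, 2529 and 1263 scaled reads, and with the belt deletion at 246, 337 and 317. All 3 belt deletion libraries lay below all 3 wild-type libraries, and the level was 5.71-fold lower (log2 change -2.51, SE 0.34, edgeR adjusted p = 2.98e-08). miR-30d-5p read 1728, 1578 and 1129 with wild type and 171, 351 and 362 with the belt deletion, 5.02-fold lower (log2 change -2.33, SE 0.34, edgeR adjusted p = 1.74e-07). miR-30e-5p read 304, 390.3 and 175 against 51.0, 75.2 and 55.5, 4.78-fold lower (log2 change -2.26, SE 0.38, edgeR adjusted p = 3.22e-06). These 3 strands belong to 1 seed family, and in none of them did the groups overlap. The 3p strands of the same mir-30a and mir-30e hairpins went the other way, as described with the arms. Of 8 family strands tested 3 fell and 2 rose, where 9.43% and 3.14% did so over all miRNAs, and the family's median log2 change was -0.72. miR-30c-5p was not called (log2 change -0.63, edgeR adjusted p = 0.272).

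The largest fall was that of miR-181b-5p, a member of a family active in lymphocyte development and vascular inflammation. Its reads were 83.2, 73.8 and 54.1 with wild type and 3.52, 5.02 and 1.71 with the belt deletion, 20.8-fold lower (log2 change -4.38, SE 0.51, edgeR adjusted p = 7e-10). With the empty plasmid it stood at 3.01 ± 0.885 (SD, n = 3), a range that the belt deletion libraries overlapped. With m4 it stood at 5.34 ± 0.214. miR-26b-5p, encoded in an intron of CTDSP1, read 124, 129.5 and 90.2 and then 15.8, 28.8 and 5.12 (log2 change -2.82, SE 0.43, edgeR adjusted p = 6.29e-07). Its belt deletion libraries also overlapped the empty ones, and without belt deletion replicate 2 its log2 change was -3.45. Over all 30 falls, 25 kept belt deletion libraries that were all above the empty-plasmid libraries, and 5 overlapped them. Over all 318 miRNAs tested, 48.1% had belt deletion libraries that were all above the empty ones. The 5, named after their values were seen, were miR-181b-5p, miR-26b-5p, miR-34a-5p, miR-1301-3p and miR-4521.

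miR-7-5p, which targets EGFR and is dampened by the circular RNA Cdr1as, was the most abundant miRNA that fell. It read 10459.6, 9537 and 5015 with wild type and 1612, 1899.9 and 1546 with the belt deletion, 4.95-fold lower (log2 change -2.31, SE 0.34, edgeR adjusted p = 1.83e-07). It is listed under 3 hairpins, and its reads could not be told from those of miR-3529-3p on the opposite strand. let-7g-5p, whose family holds back LIN28 and RAS genes, read 1897, 1903 and 1284 and 391, 487 and 374, 4.06-fold lower (log2 change -2.02, SE 0.32, edgeR adjusted p = 1.35e-06). The lowest wild-type library lay above the highest belt deletion library for both. miR-22-3p read 265, 243 and 156 and 47.5, 47.7 and 56.3 (log2 change -2.13, SE 0.37, edgeR adjusted p = 6.91e-06). miR-221-3p, a repressor of the cell-cycle inhibitor CDKN1B, read 3152, 3056 and 1706 and 813, 625 and 697, 3.71-fold lower (log2 change -1.89, SE 0.33, edgeR adjusted p = 6.81e-06). In each of these 4 miRNAs all belt deletion libraries lay below all wild-type libraries.

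The remaining named falls were smaller or less abundant. miR-29a-3p, which targets collagen mRNAs, read 197, 223 and 128 with wild type and 31.7, 56.4 and 56.3 with the belt deletion (log2 change -1.92). miR-186-5p, from an intron of ZRANB2, had a log2 change of -1.99, and miR-340-5p, from an intron of RNF130, one of -1.84. miR-99b-5p read 464, 378 and 184 against 52.8, 184 and 60.6 (log2 change -1.79), and belt deletion replicate 2 lay just above wild type replicate 3. Without belt deletion replicate 2 its change was -2.61. miR-4521 read 2460.3, 3788 and 2043 against 993, 692 and 776 (log2 change -1.75). With the empty plasmid it stood at 1188 ± 313 scaled reads (SD, n = 3), which the belt deletion libraries overlapped, and its edgeR adjusted p was 0.0538 under TMM and 0.143 with total counts. miR-34a-5p, the p53-induced tumour suppressor, was low throughout, at 22.6, 23.4 and 12.4 with wild type and 0.880, 0 and 4.27 with the belt deletion (log2 change -3.27, SE 0.79, edgeR adjusted p = 0.00130), and without belt deletion replicate 3 its log2 change was -4.95.

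**Figure D2:**
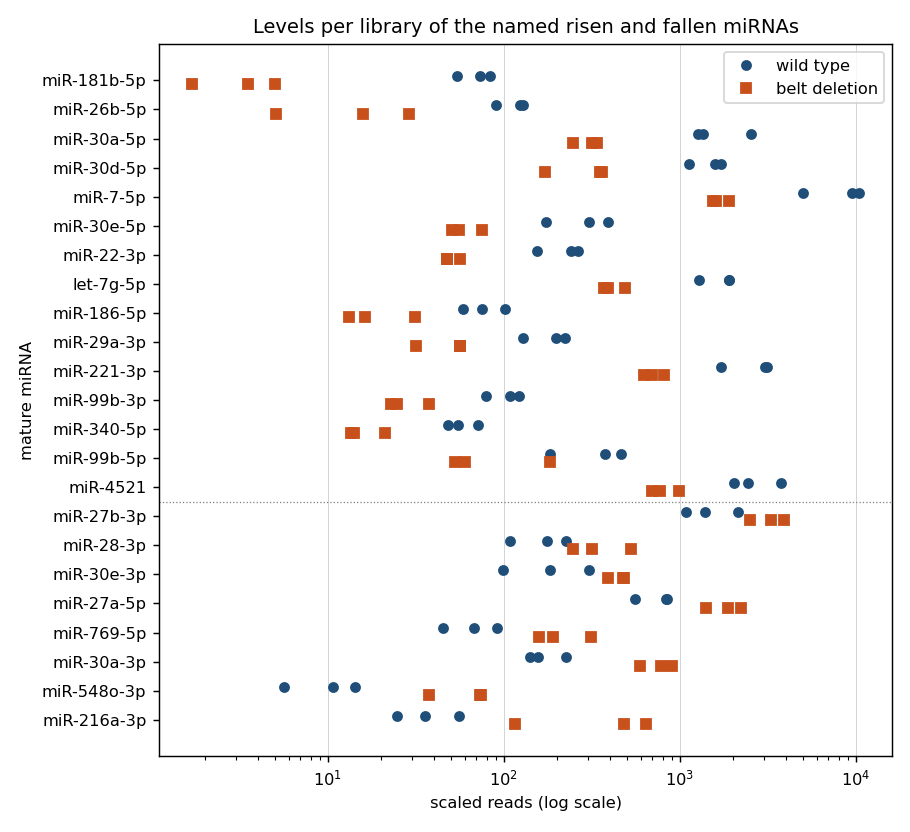
Scaled reads per library (horizontal log axis; blue circles are wild type, orange squares are belt deletion) for the 8 named rises, below the dividing line, and the 15 named falls above it, ordered by log2 change. The 2 groups of 3 points do not overlap in any row except that of miR-99b-5p.

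The largest rise was that of miR-216a-3p. Of the 10 rises, 6 were 3p strands, 2 were 5p strands, and for 2 (miR-3158-3p and miR-625-3p, named after their values were seen) the table gives the same reads to both arms, so the strand is not known. miR-216a-3p, a miRNA best known from the pancreas, read 55.9, 36.0 and 24.8 scaled reads with wild type and 641, 117 and 484 with the belt deletion (log2 change 3.41, SE 0.60, edgeR adjusted p = 0.00116). Its level with the empty plasmid was 551 ± 158 and with m4 77.9 ± 37.6 (SD, n = 3), so its mean was lowest with wild type and the belt deletion libraries overlapped the empty ones. miR-548o-3p, of a primate family derived from MADE1 transposons, read 10.7, 14.4 and 5.63 against 73.0, 74.0 and 37.5 (log2 change 2.62, SE 0.48, edgeR adjusted p = 2.44e-05). It is listed under 2 hairpins. miR-769-5p, from an intron of CCDC61, read 67.8, 91.7 and 45.1 against 190.0, 315 and 159.6, 3.26-fold higher (log2 change 1.70, SE 0.37, edgeR adjusted p = 0.000389). None of these 3 had overlapping groups, and the belt deletion libraries of miR-216a-3p spread the most.

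The mir-23a and mir-23b clusters each carry a miR-27, which regulates PPARG and lipid metabolism, and in each 1 arm of the miR-27 hairpin rose with the belt deletion. miR-27a-5p read 844, 833 and 559 with wild type and 1884, 2223 and 1410.4 with the belt deletion, 2.47-fold higher (log2 change 1.30, SE 0.33, edgeR adjusted p = 0.00201). With the reference summed its edgeR adjusted p was 0.0997. miR-27b-3p read 1384, 2151 and 1089 against 3315, 3936 and 2525, 2.11-fold higher (log2 change 1.08, SE 0.33, edgeR adjusted p = 0.0140). Its groups were apart, but the call was lost with the reference summed (0.285) and without wild type replicate 1, wild type replicate 3 or belt deletion replicate 2 (edgeR adjusted p = 0.0804, 0.0818 and 0.0892). Their cluster neighbours miR-23a-3p (log2 change -1.21) and miR-23b-3p (-1.53) fell, while miR-27a-3p was not called (-0.22). miR-27b-5p was higher in all 3 belt deletion libraries, at 94.1, 58.9 and 70.8 scaled reads against 41.6, 45.0 and 38.3, but was not called (log2 change 0.85, edgeR adjusted p = 0.156). The call of miR-23b-3p was lost without wild type replicate 2 (edgeR adjusted p = 0.247), and that of miR-23a-3p without wild type replicate 2 (0.139), without belt deletion replicate 3 (0.0540), with total counts (0.0528) and with the reference summed (0.0617). Of 8 strands tested from these clusters, which also hold miR-24, 2 rose and 2 fell, where 3.14% and 9.43% did so over all miRNAs.

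miR-30a-3p read 226, 156 and 142 with wild type and 779, 899 and 599 with the belt deletion, 4.34-fold higher (log2 change 2.12, SE 0.34, edgeR adjusted p = 1.35e-06). miR-30e-3p read 307, 183 and 99.2 against 474, 482 and 393, 2.29-fold higher (log2 change 1.19, SE 0.36, edgeR adjusted p = 0.0138). Groups did not overlap for either strand. The call of miR-30e-3p was lost with the reference summed (edgeR adjusted p = 0.205), without wild type replicate 2 (0.0729) and without wild type replicate 3 (0.129). miR-28-3p, from a LINE2-derived hairpin, read 177, 227 and 108 against 247, 527 and 319 (log2 change 1.10, SE 0.38, edgeR adjusted p = 0.0444). Its call was the least stable of the named rises and was lost in 12 of 21 alternatives. Among them were those without wild type replicate 1 or 3 (edgeR adjusted p = 0.10004 and 0.182) and without belt deletion replicate 2 or 3 (0.281 and 0.0540).

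Calls were counted by arm, leaving out 3 tested names whose reads are listed for both arms. Of 179 5p strands tested, 18 fell (10.1%) and 2 rose (1.12%), and of 136 3p strands, 12 fell (8.82%) and 6 rose (4.41%). The difference between the arms was not tested. In 46 hairpins both arms could be tested for level, and the 2 arms had the same sign of change in 25 and opposite signs in 21. An arm was called in 10 of these hairpins. In mir-99b, which lies in an intron of SPACA6 beside let-7e and mir-125a, both arms fell, by log2 changes of -1.79 (5p) and -1.87 (3p). In mir-30a and mir-30e the 5p arm fell and the 3p arm rose. In the remaining 7 only 1 arm was called, as in mir-10a, where miR-10a-3p fell (log2 change -3.25) and the abundant miR-10a-5p was not called (-0.20). For many other called strands the second arm was too low to test. miR-26b-3p was at 0 in the 6 libraries, and miR-181b-3p, miR-7-1-3p and let-7g-3p were seen in 1 library each. miR-30d-3p, the partner of the fallen miR-30d-5p, read 13.1, 7.20 and 10.1 with wild type and 1.76, 1.25 and 1.71 with the belt deletion, lower in all 3 libraries, and its level was not tested.

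**Figure D3:**
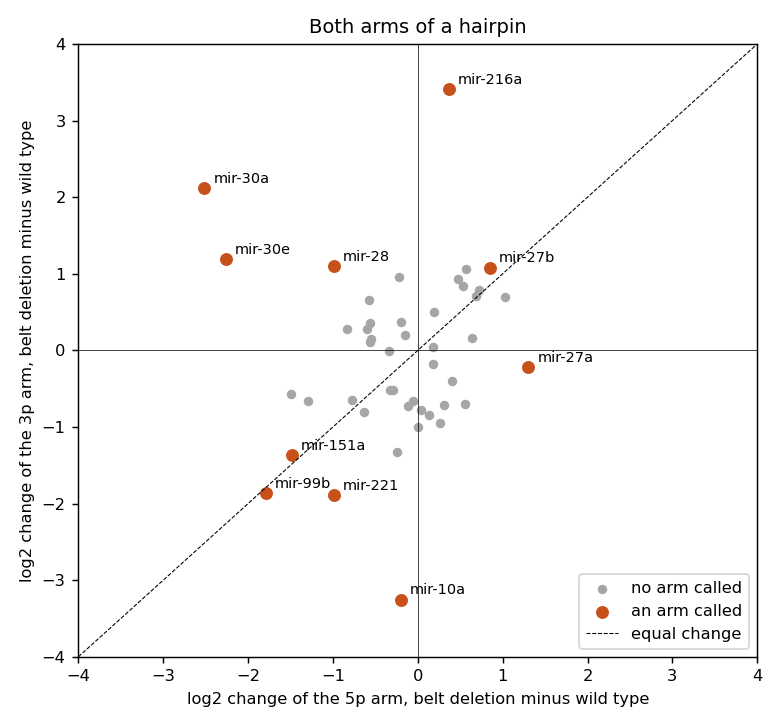
Log2 change of the 5p strand (horizontal axis) against that of the 3p strand (vertical axis), belt deletion minus wild type, for the 46 hairpins with both arms tested, with hairpins in which an arm was called in orange. The mir-30a and mir-30e points lie at the upper left (5p lower, 3p higher) and mir-99b in the lower left.

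The ratio of the 2 arms of a hairpin within 1 library needs no scaling and was tested in 53 hairpins, of which 1, mir-3913-1, has the same reads listed for both arms and could not change. It changed in 6 of them (11.3%), with a higher 3p share in 2 (3.77%) and a lower one in 4 (7.55%). Groups did not overlap in 15 (28.3%), and 12 had an unadjusted p under 0.05. In mir-30a the 3p share of both arms was 14.3%, 5.83% and 10.1% in the wild-type libraries and 76.0%, 72.7% and 65.4% in the belt deletion libraries. The minor strand with wild type was therefore the major strand in all 3 belt deletion libraries. The means were 10.1% ± 4.21 and 71.3% ± 5.43 (SD, n = 3; log2 5p-to-3p ratio changed by -4.57, SE 0.44, edgeR adjusted p = 0.00267). The share was 37.6% ± 2.50 with the empty plasmid and 45.3% ± 7.15 with m4, on as few as 28 reads of both arms in an empty-plasmid library. In mir-30e the 3p share was 50.2%, 31.97% and 36.2% with wild type and 90.3%, 86.5% and 87.6% with the belt deletion (log2 5p-to-3p ratio changed by -3.52, SE 0.35, edgeR adjusted p = 0.00267). It stood at 63.9% ± 6.37 with the empty plasmid. Both hairpins thus shifted toward the 3p strand, and every belt deletion library lay above every empty-plasmid library in each. In the hairpins printed above, the 5p strands of mir-30a and mir-30e differ at 1 position, as do the 3p strands, so reads of 1 hairpin could have been counted to the other. The ratio was not called in the other tested miR-30 hairpins mir-30d (log2 change 0.24, edgeR adjusted p = 0.793), mir-30b (0.55, 0.765), mir-30c-2 (-0.63, 0.416) and mir-30c-1 (0.17, 0.872), the last 2 of which share miR-30c-5p.

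The other called hairpins shifted toward the 5p strand. In mir-10a the 3p share was 0.435%, 0.282% and 0.608% with wild type and 0.0560%, 0.0370% and 0.0532% with the belt deletion (log2 5p-to-3p ratio changed by 3.08, SE 0.41, edgeR adjusted p = 0.00765), so a strand already under 1% became rarer still. miR-10a-3p had only 67 reads in all over the 6 libraries. Its level was 32.1, 21.6 and 22.5 scaled reads with wild type and 2.64, 2.51 and 2.56 with the belt deletion. The size of this change thus rests on a strand near 0. In mir-27a the share was 62.3%, 47.3% and 61.9% against 30.8%, 33.2% and 32.3% (log2 5p-to-3p ratio changed by 1.51, SE 0.28, edgeR adjusted p = 0.0251). The main strand of mir-27a was the 3p in 2 of 3 wild-type libraries and the 5p in the 3 belt deletion libraries. miR-27a-3p differs from miR-27b-3p at 1 position, so reads of 1 hairpin could have been counted to the other. In mir-221 the share was 91.0%, 91.4% and 91.7% against 87.0%, 81.9% and 85.3% (log2 5p-to-3p ratio changed by 0.92, SE 0.20, edgeR adjusted p = 0.0394), so the 3p strand stayed the main one. The last was mir-6511a-4, at 12.6% ± 1.38 and 5.81% ± 0.935 (log2 5p-to-3p ratio changed by 1.21, SE 0.22, edgeR adjusted p = 0.0251), whose strands share reads with its other copies.

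mir-30a, mir-30e and mir-10a were called in all 11 alternatives tried. The call of mir-27a was lost in 7 and that of mir-221 in 8, and for mir-6511a-4 it was lost in 6 of the 9 in which it was tested. In the fit of all 12 libraries edgeR's adjusted p was 0.0620 for mir-27a, 0.127 for mir-221 and 0.243 for mir-6511a-4. Leaving out 1 library gave edgeR adjusted p-values of 0.0656 to 0.102 for mir-27a where the call was lost (without wild type replicate 1 or 3 or any belt deletion replicate). For mir-221 they were 0.0656 to 0.145 (without any wild type replicate, or belt deletion replicate 2 or 3). For mir-6511a-4 they were 0.0666 to 0.102 (without wild type replicate 2 or 3, or belt deletion replicate 2 or 3). The log2 change kept its sign in each. Other hairpins with many reads were not called. The 3p share of mir-21 was 0.138%, 0.279% and 0.195% with wild type and 0.130%, 0.136% and 0.141% with the belt deletion (edgeR adjusted p = 0.285). The ratio was also not called for mir-361, where the mean 3p share was 88.5% ± 2.80 and 96.8% ± 2.05 with groups apart (edgeR adjusted p = 0.0882), or for mir-222 (log2 change 0.10), mir-148a (-0.24), mir-151a (-0.07) and mir-27b (-0.29).

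**Figure D4:**
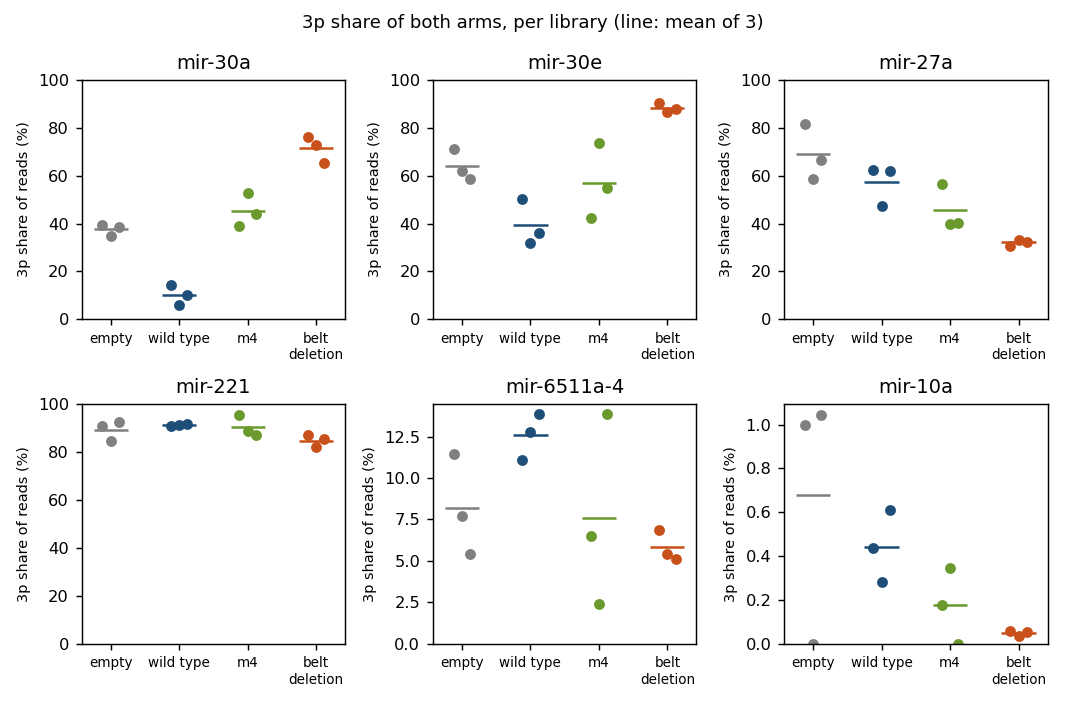
The 3p strand as percent of both arms in each library (vertical axis; blue points are wild type, orange are belt deletion, grey are empty plasmid and green are m4; lines are means of 3) for the 6 hairpins with a called arm ratio, with a shorter vertical axis for mir-6511a-4 and mir-10a. The means go from 10.1% to 71.3% in mir-30a and from 57.2% to 32.1% in mir-27a.

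Near relatives from the same family or cluster often differed in how far they moved. The pairs here were chosen after their values were seen, so they are given with no test, as the reads of the first member in percent of both, which no scaling affects. miR-221-3p and miR-222-3p come from 1 host transcript. The miR-221-3p part was 43.7%, 47.9% and 48.1% with wild type and 21.9%, 16.7% and 16.8% with the belt deletion, and miR-222-3p itself had a log2 change of 0.04. The miR-181b-5p part of its pair with miR-181a-5p went from 34.1% ± 1.10 to 3.72% ± 2.02 (SD, n = 3). With the empty plasmid it was 39.3% ± 5.59, close to the wild-type value but on few reads. let-7g-5p made up 6.84% ± 0.762 of its pair with let-7i-5p in wild type and 1.97% ± 0.177 with the belt deletion. The wild-type and belt deletion groups of these pairs did not overlap. With m4 the miR-221-3p part was 13.7% ± 4.35 and the miR-181b-5p part 7.91% ± 2.51, both below the wild-type means. The let-7g-5p part with m4 was 25.2% ± 4.98, above its wild-type mean.

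In the pair of miR-26b-5p and miR-26a-5p the miR-26b-5p part was 8.48% ± 1.44 with wild type and 1.67% ± 1.25 with the belt deletion. miR-148b-3p made up 9.14% ± 1.398 of its pair with miR-148a-3p and then 1.82% ± 0.325, while miR-148a-3p had a log2 change of 0.84 that was not called (edgeR adjusted p = 0.0820). In the mir-23b cluster miR-23b-3p went from 4.01% ± 0.937 to 0.707% ± 0.177 of its sum with miR-27b-3p. In the mir-23a cluster, with wild type and the belt deletion, the miR-23a-3p part was 15.997% ± 7.40 and 8.57% ± 2.03 of its sum with miR-27a-3p. miR-92a-3p made up 90.8% ± 0.961 and 66.9% ± 8.28 of its pair with miR-92b-3p. miR-30a-5p made up 91.3% ± 5.61 and 75.7% ± 3.86 of its pair with miR-30c-5p. The wild-type and belt deletion groups did not overlap in any of these pairs. With m4 the mean parts were 3.22% (miR-148b-3p), 2.48% (miR-23b-3p), 10.5% (miR-23a-3p), 87.6% (miR-92a-3p) and 66.2% (miR-30a-5p), each below its wild-type mean. The miR-26b-5p part with m4 was 14.2%, above its wild-type mean. In every pair described the first member lost part of the sum, which follows from choosing fallen miRNAs as first members.

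**Figure D5:**
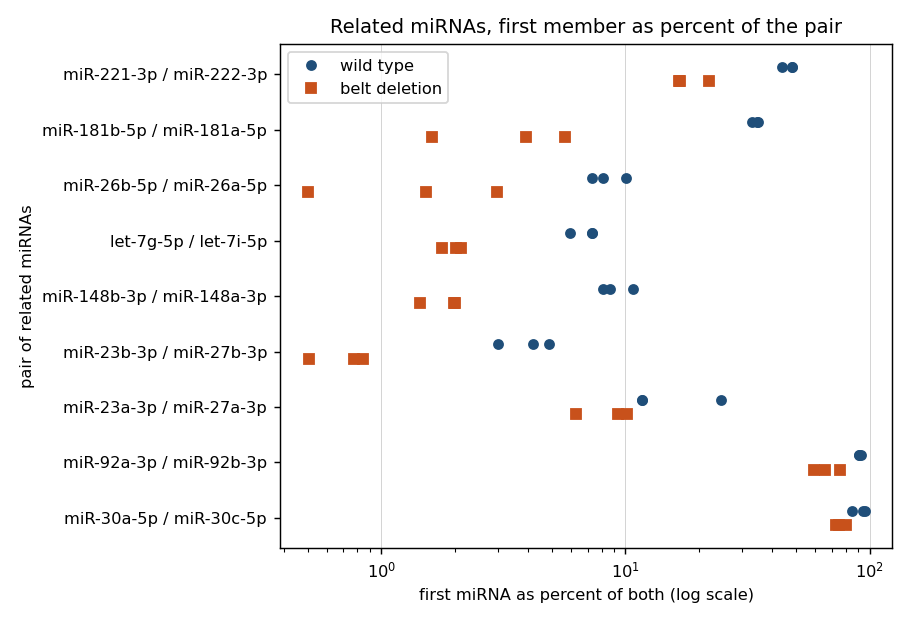
Reads of the first miRNA as percent of both in each library (horizontal log axis, percent; blue circles are wild type, orange squares are belt deletion) for the pairs of related miRNAs, 1 pair per row. The miR-221-3p part goes from a mean of 46.5% to 18.4% and the miR-181b-5p part from 34.1% to 3.72%.

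The most abundant miRNAs were largely not among the calls. miR-21-5p, an oncogenic miRNA of colorectal tumours, read 92757, 102758 and 47335 with wild type and 77692, 79198 and 67739.8 with the belt deletion (log2 change -0.11, SE 0.34, edgeR adjusted p = 0.860). let-7i-5p had a log2 change of -0.18, miR-10a-5p one of -0.20, miR-100-5p one of 0.14 and miR-3615 one of 0.16. The groups of miR-21-5p overlapped, since wild type replicate 3 was the lowest library of all. miR-7706 read 5686, 4290.2 and 3670.3 against 6988, 10315 and 6576 with a log2 change of 0.81 that missed the call (edgeR adjusted p = 0.1004). Of the 10 most abundant miRNAs with wild type, miR-7-5p and miR-151a-3p were called, both lower, where 12.6% of all tested miRNAs were called. miR-151a-3p, of the LINE2-derived mir-151a hairpin, read 4966, 4515 and 2752 against 1045, 2262 and 1428 (log2 change -1.37, SE 0.33, edgeR adjusted p = 0.00130). miR-320a-3p and miR-320b belong to the reference, so their changes of 0.13 and 0.15 are no separate result.

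By family and cluster, the miR-17-92 cluster and its paralogues, which promote proliferation downstream of MYC, had the most one-sided count. Of 7 strands tested 4 fell and 0 rose (9.43% and 3.14% over all miRNAs), with a median log2 change of -1.14, against 0.02 over all miRNAs. The fallen ones, named after their values were seen, were miR-20a-5p (-1.54), miR-92a-3p (-1.48), miR-93-5p (-1.14) and miR-17-5p (-1.12). The call of miR-17-5p was lost in 8 of 21 alternatives, with edgeR adjusted p-values of 0.0516 to 0.164, among them those without wild type replicate 1 or 2 (0.0994 and 0.148) or belt deletion replicate 1 or 3 (0.160 and 0.164). The call of miR-93-5p was lost in 6 alternatives, with edgeR adjusted p-values of 0.0571 to 0.110, among them every one that left out a library except those without wild type replicate 3 or belt deletion replicate 2. In the superfamily of miR-125, miR-100, miR-99 and miR-10, much of it in HOX clusters or beside let-7 genes, 3 of 11 strands fell and 0 rose (median -0.53). In the let-7 family 1 of 9 fell, let-7g-5p, with a median of -0.30. The LINE2-derived mir-28 and mir-151a hairpins had 1 rise and 1 fall among 4 strands.

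Of the miR-181 family 1 of 4 strands fell (median -0.22), of the miR-26 family 1 of 2, of the miR-29 family 1 of 2 and of the miR-148 and miR-152 family 1 of 4 (median 0.23). Over all 318 miRNAs 9.43% fell, 3.14% rose and 75 had an unadjusted p under 0.05. In lists of so few strands a count of 0 calls therefore does not show that the members were spared. In the mir-191 and mir-425 cluster miR-425-5p fell (log2 change -1.18, edgeR adjusted p = 0.0343) and miR-191-5p was not called (-0.47). The call of miR-425-5p was lost in 10 of 21 alternatives. Among them were the DESeq2 test (DESeq2 adjusted p = 0.0764), total counts and the summed reference (edgeR adjusted p = 0.0758 and 0.0932). It was also lost without wild type replicate 1 or 2 or belt deletion replicate 1 or 3, with edgeR adjusted p-values of 0.0646 to 0.286. No strand was called in the miR-200 family, which guards epithelial identity by repressing ZEB1 (0 of 5 by edgeR, by DESeq2 and at an unadjusted p under 0.05, median -0.04), or in the mir-183, mir-96 and mir-182 cluster of sensory tissues (0 of 3 by the same 3 counts, median 0.01). Neither edgeR nor DESeq2 called a strand of the miR-15, miR-16, miR-424 and miR-503 list (0 of 4, 1 at an unadjusted p under 0.05, median -0.65), of miR-103 and miR-107 (0 of 2, 0 unadjusted) or of the miR-378 family (0 of 3, 1 unadjusted). Of the 14 DROSHA-independent strands tested 0 were called by edgeR, 1 by DESeq2 (miR-1224-5p) and 3 at an unadjusted p under 0.05 (median 0.14). Of 6 strands derived from snoRNAs or tRNAs 0 were called by edgeR or DESeq2 and 0 had an unadjusted p under 0.05 (median -0.14). The count of 0 in the DROSHA-independent list is no separate result, since that list sets the scale.

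Sequence features were read from RefSeq hairpins, which were found for 278 of the 318 tested miRNAs. Among the calls they were found for 25 of the 30 falls and 8 of the 10 rises. The largest fall, miR-181b-5p, was among those left out, as were miR-30d-5p, miR-22-3p and miR-548o-3p. The apical loop, the stretch between the 2 mature strands, was searched for the letters UGU, a motif known at the end of the terminal loop that DGCR8 contacts. It was found in 12 of 19 hairpins with a fallen strand (63.2%), in 5 of 8 with a risen strand (62.5%) and in 58 of 168 in all (34.5%), each hairpin counted once. The first 2 groups share 2 hairpins, mir-30a and mir-30e. UGU was searched on the hairpin strand only, anywhere in the loop. Over strands, the median log2 change was -0.06 with UGU and 0.03 without it. A first base of U, which Argonaute proteins favour, was found in 14 of 22 fallen strands (63.6%), 3 of 8 risen strands (37.5%) and 128 of all 258 (49.6%). The median GC content of the mature strand was 47.6% among fallen, 48.8% among risen and 52.4% among all. Across the 258 miRNAs, which share libraries and scaling, Spearman's rho between GC content of the mature strand and log2 change was 0.29, and across 278 miRNAs, some of which share a hairpin, it was 0.23 for GC content of the hairpin and -0.16 for hairpin length. These are descriptions of miRNAs that are not independent replicates. The 278 include DROSHA-independent strands such as miR-1224-5p. Of the 318 tested miRNAs, 48.7% had belt deletion libraries that overlapped the empty-plasmid ones. Whether the features differ among DROSHA-dependent miRNAs alone was not tested. Motifs in the flanks, CNNC after the 3p strand and UG before the 5p strand, could be read for 35 and 83 of the 278 miRNAs. Most RefSeq hairpins end too soon. UG was found for 3 of 10 fallen strands, 0 of 5 risen ones and 12 of 83 in all, and CNNC for 1 of 3, 0 of 2 and 13 of 35. The median log2 change was -0.60 with UG and 0.04 without it, and -0.48 with CNNC and 0.15 without it. So few called strands could be read that no conclusion is drawn.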

How the data were processed

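Mature miRNAs were counted from small RNA of 19 to 24 nt, cut from a 15% gel of 10 µg total RNA and made into libraries with a NEBNext kit, per the labels' protocols. The values are the authors' deposited raw read counts per mature name and hairpin; no normalization shows in them. Bowtie2, cutadapt and hg38 were used, per the submitters' processing notes; versions, the counter, the use of strand and the handling of reads that fit several hairpins are not given in the sources used here. Blank cells (7220 of 16908) were read as 0. For each of 84 names under several hairpins the line with most reads was kept, and 9 name pairs whose reads matched (within 5 reads or 5% in every library) were merged, leaving 1277 miRNAs.

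Library factors were the median ratio over the DROSHA-independent features miR-1224, miR-1226, miR-320 (summed), miR-484 and miR-877, each with 20 or more reads in all 12 libraries. Levels were tested with edgeR 4.0.16 in R 4.3.3 (quasi-likelihood F test, filterByExpr, 1 fit of all 12 libraries, Benjamini-Hochberg over 318 miRNAs). Arm ratios were tested with edgeR on the 5p and 3p counts of the 6 libraries, with library effects, over 53 hairpins with at least 20 reads over both arms in each library and 20 of each arm in all. The tests were also run on simulated counts whose spread between replicates was set beforehand, not estimated from these libraries. Their outcome is not used here. Named were the 15 largest falls and up to 15 rises among calls with a mean of at least 50 scaled reads in the higher group, the 10 most abundant with wild type, other arms, called and most-read hairpins, and list members. The libraries, lists and rules were chosen with earlier results of these data known. DESeq2 1.42.0, limma 3.58.1 and other scalings, filters and left-out replicates were alternatives.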

Additional observations from a re-analysis of the deposited data

How the results depend on the processing

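Of the named levels and arm ratios that were called, and of the counts of calls, none changed direction under any alternative. The median log2 change over all miRNAs, 0.02, ranged from -0.21 (without belt deletion replicate 2) to 0.13 (TMM), so its sign depends on the setting. The number of rises, 10 as reported, was 26 under TMM, 18 under DESeq2 size factors, 16 without miR-1224 in the reference, 16 in a fit of only the 6 libraries and 5 with the reference summed. Leaving out 1 library gave 32 to 45 calls in all, 6 to 10 rises and 23 to 39 falls. Of the 40 calls, 38 remained under TMM and 30 with the reference summed. Changed arm ratios, 6 as reported, numbered 3 in a fit of all 12 libraries and 3 to 6 with 1 library left out. Deviations of same-numbered replicates from their group means had correlations of -0.16, -0.22 and -0.15, and those of differently numbered ones -0.05 to 0.20. With 3 libraries in a group these values cannot decide whether repeats of the same number share a batch. With the replicate number as a block there were 39 level calls (9 rises, 30 falls) and 3 arm calls. The difference of -0.27 in the ratio of other miRNAs to DROSHA-independent reads cannot change with this block, since the groups are of equal size. Where a left-out library leaves calls lost, the smaller number of samples is part of the alternative. The cause of the other shifts was not tested. Named miRNAs and hairpins that were called gave 694 alternative values, of which 635 kept the call and 59 lost it. Those not called gave 1361, of which 31 gained a call. Depth limits miRNAs near 0, such as the partner strands of miR-26b-5p and miR-181b-5p, which could not be tested.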
